A study of Mus musculus with 14 samples.

Results

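The 8 genes described here, Mgmt, Alkbh2, Alkbh3, Msh6, Pms2, Mpg, Apex1 and Xrcc1, encode proteins that remove or recognise the DNA lesions made by temozolomide and other methylating agents. They were chosen by name for that function, not by measured values, and are 8 of 30436 features into which the deposited RefSeq transcript rows were summed. RNA was sequenced from liver or liver tumour of male C3HeB/FeJ mice aged 18 months, a strain in which hepatocellular carcinoma arises spontaneously. The animals were assessed for tumours at 10 months, and treatment followed in 6 cycles of 28 days with injections on 5 consecutive days. All 14 samples shared strain, sex and age.

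The 4 Normal liver samples came from mice given phosphate citrate buffer. Of the 6 tumours labelled Grow, Grow 1 and Grow 5 received DMSO. Grow 6 received 100 mg/kg of SAHA (suberoylanilide hydroxamic acid), which inhibits histone deacetylases. Grow 2, Grow 3 and Grow 4 received SAHA at 85 mg/kg together with temozolomide (TMZ) at 22 mg/kg. Of the 4 tumours labelled Regress, Regress 1 and Regress 3 received TMZ alone at 31 mg/kg, Regress 2 received buffer and Regress 4 received DMSO. TMZ was therefore present in 5 of 10 tumours, 3 Grow and 2 Regress. In every Grow tumour with TMZ it came with SAHA. Only Grow 6 received SAHA without TMZ, at another dose, so telling those agents apart within Grow rests on that library alone. SAHA was given to Grow tumours only, so Regress against Grow also differs by SAHA. All Normal livers got buffer and Regress 2 was the only tumour given it, so tumour against Normal also differs by treatment. How a tumour was scored as growing or regressing is not stated in the labels. Nor do they say that each sample came from its own mouse, so the p-values rest on the spread among these samples only, which may be technical. Normal 4 and Regress 2 carry the same code in the labels, whose meaning is not given.

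Temozolomide adds methyl groups to DNA bases. The methyl on the oxygen of guanine is taken off directly by the Mgmt protein, which is used up in the reaction. If it stays, the base pairs with thymine, the mismatch is bound by a complex that contains Msh6, a complex that contains Pms2 follows, and repeated failed repair leads to strand breaks and cell death. Methyl groups on ring nitrogens are handled by base excision repair, in which the glycosylase Mpg removes the base, the endonuclease Apex1 cuts the backbone at the empty site and the scaffold Xrcc1 brings in the enzymes that fill and seal the gap. Alkbh2 and Alkbh3 are dioxygenases that remove methyl groups from adenine and cytosine by oxidation. Liver is known as a tissue with high Mgmt activity.

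Promoters of 3 of the genes are shown because the values of these genes across the libraries differed most in kind: Mgmt and Msh6 ran in opposite directions, and Apex1 followed neither. The sequences are RefSeq's, from assembly GRCm38.p6, and run from 250 bases before to 50 bases after the annotated start. All 8 genes had an entry. Capitals mark matches, on either strand, to the GC box GGGCGG, the E box CACGTG or the E2F-type motif TTTCCCGC, and none of these letters says that a factor binds. The first Mgmt promoter lies at chr7:136894336-136894635 on the + strand, that of Msh6 at chr17:87974800-87975099 on the + strand and that of Apex1 at chr14:50924699-50924998 on the + strand.
Mgmt: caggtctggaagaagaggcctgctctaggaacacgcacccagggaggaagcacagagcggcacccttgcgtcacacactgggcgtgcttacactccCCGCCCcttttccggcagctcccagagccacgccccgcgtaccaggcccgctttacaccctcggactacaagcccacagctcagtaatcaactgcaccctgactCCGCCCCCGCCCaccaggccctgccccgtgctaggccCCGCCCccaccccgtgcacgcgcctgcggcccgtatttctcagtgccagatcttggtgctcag
Msh6: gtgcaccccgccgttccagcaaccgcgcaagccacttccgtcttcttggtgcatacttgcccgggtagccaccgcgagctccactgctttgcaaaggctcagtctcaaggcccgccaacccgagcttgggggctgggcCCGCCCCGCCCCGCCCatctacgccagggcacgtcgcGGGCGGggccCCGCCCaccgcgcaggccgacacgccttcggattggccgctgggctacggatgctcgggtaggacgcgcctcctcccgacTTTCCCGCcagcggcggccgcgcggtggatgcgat
Apex1: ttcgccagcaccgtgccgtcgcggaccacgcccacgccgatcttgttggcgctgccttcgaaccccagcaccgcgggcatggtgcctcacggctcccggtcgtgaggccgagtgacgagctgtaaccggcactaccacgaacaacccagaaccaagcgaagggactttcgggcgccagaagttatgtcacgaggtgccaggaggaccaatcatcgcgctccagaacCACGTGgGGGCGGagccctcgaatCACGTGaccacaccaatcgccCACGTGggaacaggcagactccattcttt
The Mgmt window shown held 20 CpG dinucleotides and 4 GC boxes. Another Mgmt entry, at chr7:136912848-136913147 and not shown, held 3 CpG and 0 GC boxes. The Msh6 window held 37 CpG, a number that only 5.6% of 32851 promoters of this length reach, with 5 GC boxes, some sharing a base, and 1 E2F-type motif, which 1.07% of promoters hold. Apex1 had 31 CpG, 1 GC box and 3 E boxes near the start, and 0.088% of promoters hold 3 or more E boxes. A GC box was present in 35.66% of promoters and an E box in 7.15%, and the median promoter held 7 CpG. The files hold no methylation or binding data, so these are descriptions of the sequence alone.

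Library totals ranged from 4707063 to 13394301 estimated counts. The 12 proliferation genes that were checked summed to 6.11 to 9.13 CPM (counts scaled to one common library size, with TMM factors) in Normal and to 43.0 to 82.8 CPM in Grow, and 7 of the 12 were called higher in tumours. Regress 1 and Regress 2 stood apart from the other tumours, at 13.8 and 14.4 CPM, against 49.2 in Regress 3 and 91.1 in Regress 4. In Regress 1 the 4 liver tumour markers summed to 2.56 CPM, inside the Normal range of 2.54 to 6.84, while the other 9 tumours lay at 171 to 1162. The library labelled Regress 1 thus lacked the tumour marker level of the rest, and the group differences are also given without it. In Regress 4 the 6 stellate and fibroblast genes summed to 1130 CPM, against at most 360 elsewhere. The hepatocyte marker Alb was present in every library, from 26020 to 187360 CPM, and was lowest in Grow 3 and Grow 4. In these tumours the hepatocyte gene Cps1 had 55.8 and 50.3 CPM, against at least 658 elsewhere. Serpina1e had 417 CPM in each, against at least 1979 elsewhere. Of the other hepatocyte genes checked, Ttr, Apoa1 and Hnf4a lay inside the range of the remaining libraries there. Grow 3 and Grow 4 were the closest of the 91 pairs of libraries, with a median absolute log2 difference of 0.0881 against 0.216 in the next pair, and their counts differed by more than counting noise, which does not say whether they came from 1 tumour. They were kept as 2 samples as labelled. With both summed into 1 sample, 0 of the 8 repair genes were called in any comparison. The share of all features called in those fits is not given here. With the 2 kept apart it was 2.32% between tumour and Normal and 0% in the other comparisons, so few calls among 8 genes could occur. In bulk tissue, fewer cells of a type and less RNA per cell cannot be told apart.

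All 8 genes were detected in all 14 libraries and passed the filter on low counts. Counts ran from 9 to 256 per library and gene, so the rarest carry wide counting error: the 9 counts of Msh6 in Regress 2 have an exact Poisson 95% interval of 4.12 to 17.1, which covers counting error only. Levels can be compared between genes only per transcript length. In Normal liver Apex1 had 13.1 ± 2.84 CPM per kilobase (SD, n = 4) and Alkbh3 11.6 ± 1.98. Mgmt at 5.99 ± 3.55, Alkbh2 at 5.90 ± 1.5, Mpg at 5.48 ± 2.89 and Xrcc1 at 4.88 ± 1.02 CPM per kilobase formed a middle group whose members did not differ beyond their spread. Msh6 at 1.49 ± 0.563 and Pms2 at 0.392 ± 0.148 CPM per kilobase were the lowest, the Msh6 range of 1.03 to 2.28 lying above the Pms2 range of 0.288 to 0.607. In order, the only neighbouring ranges without overlap were those of Xrcc1 over Msh6 and Msh6 over Pms2, and that of Alkbh3 over Mgmt overlapped through Normal 2.

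**Figure D1:**
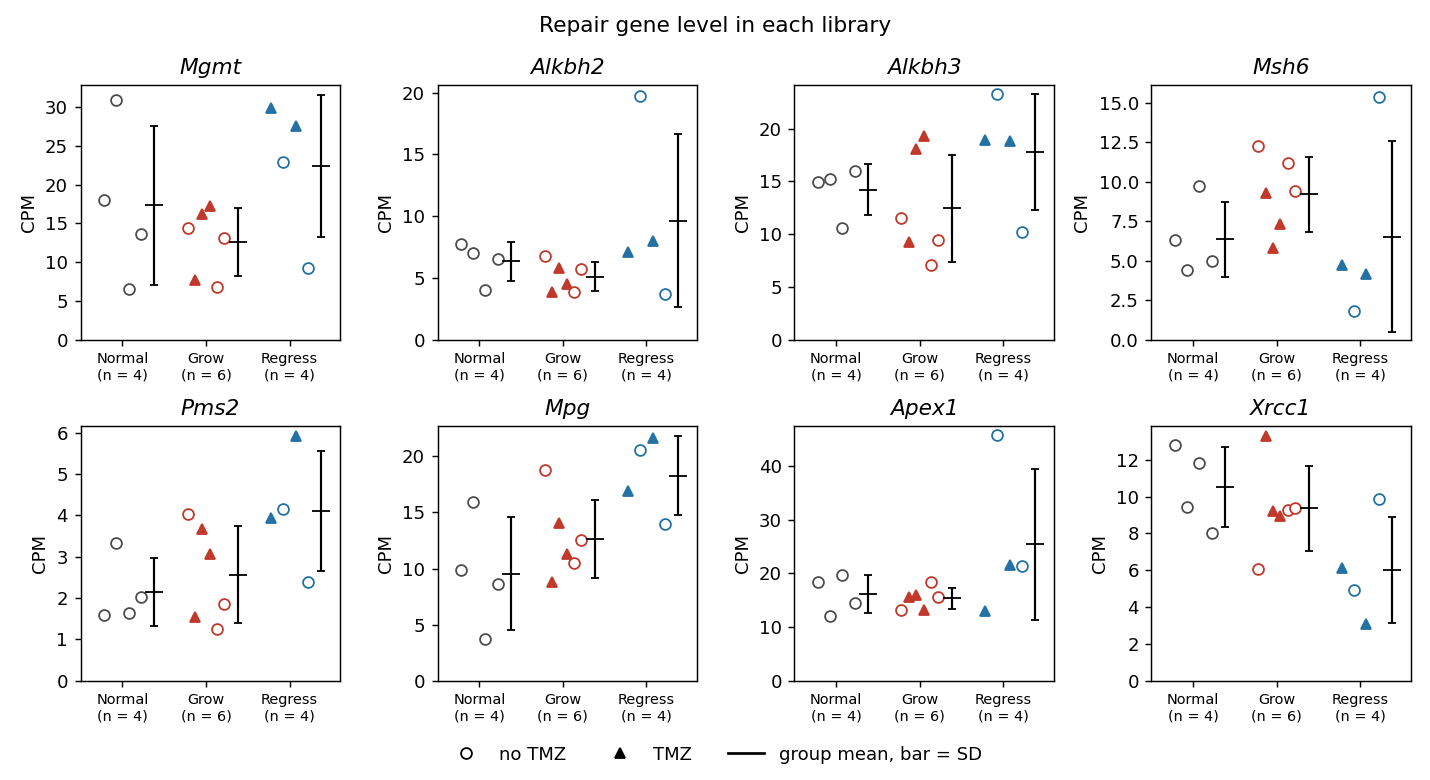
Level of each repair gene in every library, in CPM, for Normal, Grow and Regress; triangles are TMZ tumours, open circles the rest, and the bars show the group mean with its SD. Mgmt spans 6.57 to 31.0 CPM within Normal alone, Apex1 has 1 high library at 45.7 CPM, and for every gene the tumour values overlap those of Normal.

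Mgmt, the direct reversal enzyme, varied as widely within groups as between them. It measured 18.1, 31.0, 6.57 and 13.7 CPM in Normal 1 to 4. The 3 Grow tumours with SAHA and TMZ had 7.74, 16.3 and 17.2 CPM, and Grow 1, Grow 5 and Grow 6 had 14.4, 6.74 and 13.1. Regress 1 to 4 had 29.9, 22.9, 27.6 and 9.31 CPM. Normal 2 was the highest library of all and Normal 3 the lowest, so both tumour groups lay inside the Normal range. Of the 4 Regress tumours 3 were above every Grow tumour, and Regress 4 was among the low ones.

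Across comparisons no change of Mgmt passed the test. Tumour against Normal the log2 difference was -0.04 ± 0.39 (SE, 10 against 4 samples; 95% interval -0.87 to 0.78; edgeR, Benjamini-Hochberg adjusted p = 0.982). Its sign turned with several settings, from -0.32 without Normal 3 to 0.39 without Normal 2. Regress against Grow it was 0.83 ± 0.41 (interval -0.06 to 1.72; edgeR adjusted p = 0.491), with means of 22.4 ± 9.22 CPM (SD, n = 4) and 12.6 ± 4.39 (n = 6). In the 5 TMZ tumours it averaged 19.7 ± 9.05 CPM and in the other 5 tumours 13.3 ± 6.18, a log2 difference, with Grow or Regress in the fit, of 0.50 ± 0.40 (interval -0.37 to 1.36; edgeR adjusted p = 0.552). The interval leaves room for a rise of over 1 log2 unit as well as for no difference.

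Alkbh2, which acts mainly on double-stranded DNA, lay between 3.67 and 7.98 CPM except in Regress 2. It measured 7.72, 7.01, 4.03 and 6.55 CPM in Normal 1 to 4, 3.87, 5.81 and 4.48 CPM in the Grow tumours with TMZ, and 6.74, 3.88 and 5.72 in the other Grow tumours. Regress 1 to 4 had 7.09, 19.8, 7.98 and 3.67 CPM. Regress 2 thus stood far above the rest, while Regress 4 was the lowest of all 14 libraries. Regress against Grow the log2 difference was 0.91 ± 0.38 (interval 0.10 to 1.73; unadjusted p = 0.0302, edgeR adjusted p = 0.475). It was 0.28 without Regress 2 and 1.19 without Regress 4 (edgeR adjusted p = 0.0439), so 2 libraries decide this value. The fit without Regress 4 called 9.98% of all features, against 0% with all libraries.

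Alkbh3, which prefers single-stranded DNA and RNA, ranged from 10.6 to 16.0 CPM in Normal, from 7.08 to 19.3 with a median of 10.5 in Grow, and from 10.2 to 23.3 in Regress. Among tumours, 4 of the 5 with TMZ lay at 18.1 to 19.3 CPM and the fifth, Grow 2, at 9.29. The tumours without TMZ had 11.5, 7.08, 9.41, 23.3 and 10.2 CPM, so the groups overlapped through Grow 2 and Regress 2. The TMZ difference was 0.51 ± 0.28 (interval -0.10 to 1.12; edgeR adjusted p = 0.426), and it was 0.78 without Regress 2 (adjusted p = 0.189). Tumour against Normal it was 0.07 ± 0.29 (interval -0.55 to 0.68; adjusted p = 0.963), and Regress against Grow 0.51 ± 0.31 (interval -0.15 to 1.17; adjusted p = 0.514). Alkbh2 differed by 0.15 ± 0.36 between tumour and Normal (interval -0.62 to 0.91; adjusted p = 0.922) and by -0.38 ± 0.38 with TMZ (interval -1.19 to 0.43; adjusted p = 0.623), the latter turning to 0.14 without Regress 2.

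Msh6, the mismatch sensor through which methylated guanine becomes toxic, measured 6.32, 4.38, 9.71 and 4.95 CPM in Normal 1 to 4. In Grow it was 9.29, 5.81 and 7.31 CPM with SAHA and TMZ and 12.2, 11.2 and 9.41 without TMZ. In Regress 1 to 4 it was 4.73, 1.78, 4.12 and 15.4 CPM. Within Grow, every TMZ tumour was below every other tumour, although by a margin within counting error at the edge. There Grow 2 and Grow 6, at 9.29 and 9.41 CPM, rest on 60 and 51 counts. The share of all features with such a split within Grow was not computed. Within Regress the 2 TMZ tumours lay between the lowest and the highest of all 14 libraries, Regress 2 and Regress 4.

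Msh6 averaged 6.25 ± 2.09 CPM in the TMZ tumours (SD, n = 5) and 10.0 ± 5.08 in the others (n = 5). The log2 difference was -0.71 ± 0.42 (interval -1.62 to 0.19; edgeR adjusted p = 0.452). Removing Regress 2 gave -0.94 (adjusted p = 0.188) and removing Regress 4 gave -0.13 (adjusted p = 0.928). Regress against Grow, Msh6 differed by -0.48 ± 0.46 (interval -1.47 to 0.51; adjusted p = 0.632). Without Regress 4 this became -1.38 with an adjusted p of 0.0421, in a fit in which 1249 features (9.98%) were called in place of 0, and without Regress 2 it became -0.18 (adjusted p = 0.908). Tumour against Normal the difference was 0.30 ± 0.43 (interval -0.62 to 1.22; adjusted p = 0.833).

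Pms2, an endonuclease of mismatch repair, was the least abundant of the 8 genes per length. It had 9 to 55 counts per library, 1.58 to 3.33 CPM in Normal, 1.26 to 4.03 with a median of 2.46 in Grow and 2.40 to 5.92 in Regress. Of the 4 Regress tumours 3, at 3.94, 4.15 and 5.92 CPM, were above the Normal range, and Regress 4 lay inside it. None of its differences passed the test: 0.60 ± 0.39 for tumour against Normal (interval -0.23 to 1.42; edgeR adjusted p = 0.488), 0.65 ± 0.40 for Regress against Grow (interval -0.20 to 1.5; adjusted p = 0.516) and 0.35 ± 0.39 for TMZ (interval -0.50 to 1.2; adjusted p = 0.663). The Regress against Grow value was 0.43 without Regress 3, and the TMZ value ran from 0.20 without Grow 5 to 0.75 without Grow 1.

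Mpg, the glycosylase that starts base excision at methylated purines, had the largest estimate of the 8 between tumour and Normal, yet it did not pass the test. It measured 9.83, 15.9, 3.74 and 8.58 CPM in Normal 1 to 4. Grow tumours ranged from 8.82 to 18.8 CPM with a median of 11.9, and Regress 1 to 4 had 16.9, 20.6, 21.6 and 14.0. Of the 10 tumours 9 were above 3 of the 4 Normal livers, and Normal 2 lay above 6 of the tumours. The log2 difference was 0.68 ± 0.31 (interval 0.01 to 1.35; unadjusted p = 0.0471, edgeR adjusted p = 0.269). Leaving out 1 library moved it between 0.41 without Normal 3 and 1.04 without Normal 2, and without Regress 1 it was 0.69 (adjusted p = 0.236).

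Mpg also had higher values in Regress, at 18.3 ± 3.50 CPM (SD, n = 4), than in Grow, at 12.7 ± 3.47 (n = 6), a difference of 0.52 ± 0.32 (interval -0.17 to 1.21; edgeR adjusted p = 0.516). With TMZ the values were 14.5 ± 4.98 CPM and without it 15.3 ± 4.24, a difference of -0.12 ± 0.33 (interval -0.82 to 0.58; adjusted p = 0.868).

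Apex1, the main endonuclease for sites without a base, varied little apart from 1 library. It measured 18.4, 12.1, 19.7 and 14.5 CPM in Normal 1 to 4, and 13.1 to 18.4 CPM with a median of 15.7 in Grow. Regress 1 to 4 had 13, 45.7, 21.6 and 21.3 CPM. Regress 2 was thus more than 2 times any other library, and it is also the library with the highest Alkbh2 and the lowest Msh6. The Regress against Grow difference of 0.73 ± 0.29 (interval 0.12 to 1.34; unadjusted p = 0.0226, edgeR adjusted p = 0.474) was 0.28 without it. Tumour against Normal the difference was 0.28 ± 0.27 (interval -0.30 to 0.86; adjusted p = 0.697) and 0.06 without Regress 2. With TMZ it was -0.43 ± 0.27 (interval -1.01 to 0.16; adjusted p = 0.475) and -0.14 without Regress 2.

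Xrcc1, the scaffold of single-strand break repair, was lowest in Regress 3 and Regress 2, followed by Grow 1 and Regress 1. Normal ranged from 8.0 to 12.8 CPM and Grow from 6.08 to 13.3 with a median of 9.23. Regress 1 to 4 had 6.11, 4.94, 3.09 and 9.88 CPM, the last inside the Normal range. The differences were -0.48 ± 0.27 for tumour against Normal (interval -1.06 to 0.10; edgeR adjusted p = 0.397), -0.62 ± 0.31 for Regress against Grow (interval -1.28 to 0.04; adjusted p = 0.491) and -0.04 ± 0.31 for TMZ (interval -0.70 to 0.62; adjusted p = 0.952). Without Regress 4 the Regress against Grow difference was -0.98 (adjusted p = 0.0507).

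**Figure D2:**
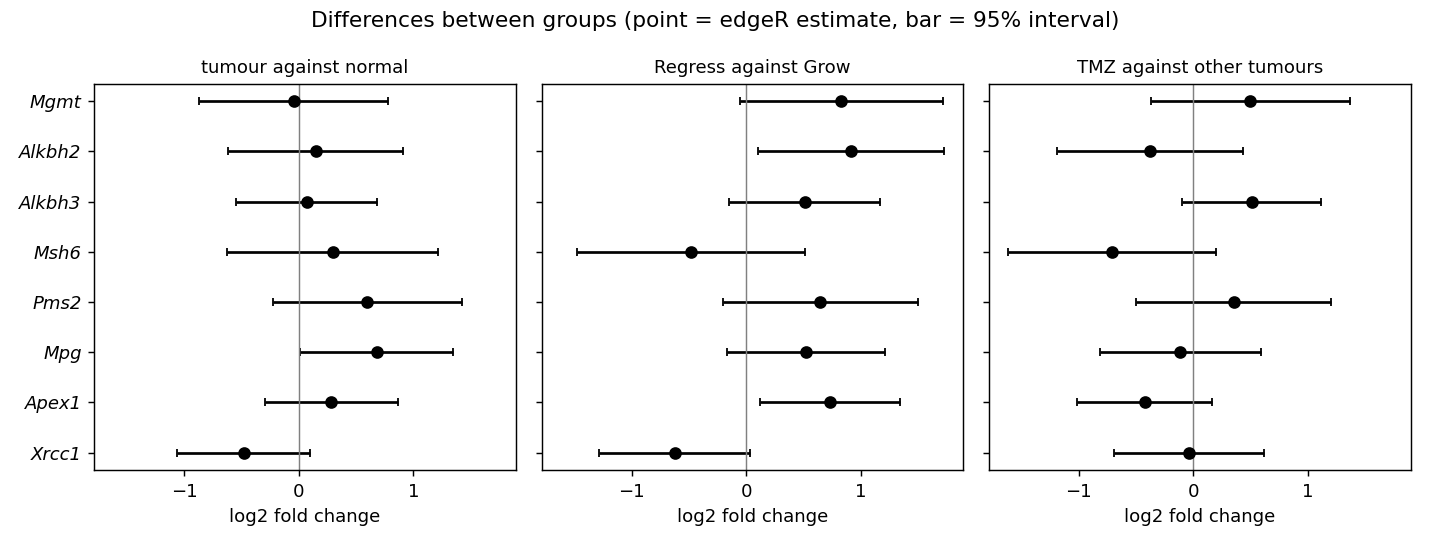
Log2 fold change of the 8 repair genes in 3 comparisons, as edgeR estimates (points) with 95% intervals (bars); the vertical line is no difference. Of 24 intervals, those of Mpg in tumour against Normal and of Alkbh2 and Apex1 in Regress against Grow do not reach 0, and none of the 24 passed adjustment over all features.

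Counted together, 0 of the 8 genes were called between tumour and Normal, where 2.32% of 12300 features were. DESeq2 and limma-voom also called 0 of the 8, where they called 8.61% and 1.03% of features, and 1 gene, Mpg, had an unadjusted p under 0.05, against 18% of all features. Of the 8 estimates 6 were above 0 and their median was 0.21, beside 0.01 over all features tested. Regress against Grow, 0 of the 8 and 0% of 12300 features were called by edgeR, and 2 genes had an unadjusted p under 0.05, against 10% of all. There the median of the 8 was 0.59, beside -0.01 over all features. For TMZ, 0 of the 8 and 0% of 12682 features were called, 0 of the 8 had an unadjusted p under 0.05 against 14.2% of all, and the medians were -0.08 and -0.03. DESeq2 and limma-voom called 0 of the 8 in these comparisons too, with 0.253% and 0% of features called for Regress against Grow and 3.83% and 0.0158% for TMZ. No gene of the 8 had groups without overlap in any of the 3 comparisons, where 2.02%, 0.919% and 1.73% of features did. These comparisons share samples, so their values are not independent of each other.

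Without Regress 1, 0 of the 8 were called in any of the 3 comparisons, where 7.84%, 0% and 0.0305% of features were. In the order Mgmt, Alkbh2, Alkbh3, Msh6, Pms2, Mpg, Apex1 and Xrcc1, the tumour against Normal differences were then -0.13, 0.21, 0.05, 0.36, 0.60, 0.69, 0.39 and -0.49 (lowest edgeR adjusted p = 0.236). Regress against Grow they were 0.66, 1.04, 0.48, -0.36, 0.67, 0.56, 0.95 and -0.63 (lowest adjusted p = 0.348), and for TMZ 0.43, -0.31, 0.56, -0.70, 0.40, -0.10, -0.24 and -0.05 (lowest adjusted p = 0.593). No direction among the 24 differed from that with all libraries.

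Whether the TMZ difference was the same in Grow and in Regress was tested as an interaction, with 0 of the 8 genes and 0% of 13147 features called. No gene of the 8 had an unadjusted p under 0.05 there, against 7.13% of all features, and DESeq2 (0.535% of features called), limma-voom (0%) and edgeR without Regress 1 (0.00716%) called 0 of the 8. The smallest p-values were those of Xrcc1, with 1.02 ± 0.58 (edgeR adjusted p = 0.755), and Apex1, with 0.88 ± 0.52 (adjusted p = 0.758). Mgmt had -0.57 ± 0.84 (interval -2.38 to 1.24; adjusted p = 0.895), an interval too wide to separate the responses.

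Another measure moved with most of these genes. For each library the mean log2 deviation of transcripts of at least 3500 bases was taken minus that of transcripts of at most 1500 bases, with the repair genes left out, which gives a long-minus-short index. It was -0.30, -0.68, 1.11 and 0.06 in Normal 1 to 4. In Grow 1 to 6 it was 0.31, 1.03, -0.34, -0.28, 0.71 and 0.40, and in Regress 1 to 4 it was -0.96, -0.92, -1.10 and 0.98. The 3 tumours Regress 1, 2 and 3 were thus the lowest of all 14 libraries, and Regress 4 was among the 3 highest.

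The 4 libraries with the most Mgmt (Normal 2, Regress 1, Regress 2 and Regress 3) were the 4 with the lowest index, and the 4 with the least Mgmt (Normal 3, Grow 2, Grow 5 and Regress 4) were the 4 with the highest. Msh6 ran the other way: its 4 lowest libraries were the 4 of lowest index, and 3 of its 4 highest were among the 4 of highest index. In an edgeR fit with group as a further term, Mgmt fell by 0.93 ± 0.11 on the log2 scale per unit of index (SE; adjusted p = 4.17e-05), and Msh6 rose by 0.80 ± 0.16 (adjusted p = 0.00138). Alkbh2, Alkbh3, Pms2 and Mpg also fell, with slopes of -0.60 ± 0.21, -0.56 ± 0.12, -0.58 ± 0.20 and -0.49 ± 0.16 and adjusted p-values of 0.0336, 0.0020, 0.0288 and 0.0194. Xrcc1, at 0.36 ± 0.14 (adjusted p = 0.0552), and Apex1, at 0.06 ± 0.18 (adjusted p = 0.808), did not pass. So 6 of 8 passed where 46.6% of 13147 features did, 5 of them falling (23.2% of all features) and 1 rising (23.5%). Such slopes were thus common in the whole table. This fit was chosen after the data were seen.

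With the index as a covariate, Mgmt differed by 0.03 between Regress and Grow in place of 0.83, and by -0.08 with TMZ in place of 0.50. Msh6 differed with TMZ by -0.09 in place of -0.71. Between Regress and Grow, Alkbh2, Alkbh3, Pms2 and Mpg then differed by 0.33, 0.07, 0.18 and 0.13, all under their values without the covariate. With TMZ, Alkbh2 was at -0.70 and Mpg at -0.51 (adjusted p = 0.286 and 0.368), both farther from 0 than without it. The tumour against Normal differences of Mpg and Xrcc1 stayed at 0.70 (adjusted p = 0.0769) and -0.48 (adjusted p = 0.180), and that of Apex1 between Regress and Grow was 0.78 (adjusted p = 0.620). The index and the split into 3 Regress tumours against Grow coincide in part, and the part of the index in the differences was not tested further. Length does not sort the 8 genes fully: the gene models used for length give 4251 bases for Msh6 and 5482 for Pms2, which had slopes of opposite sign, and 2894 for Mgmt, which had the steepest slope.

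**Figure D3:**
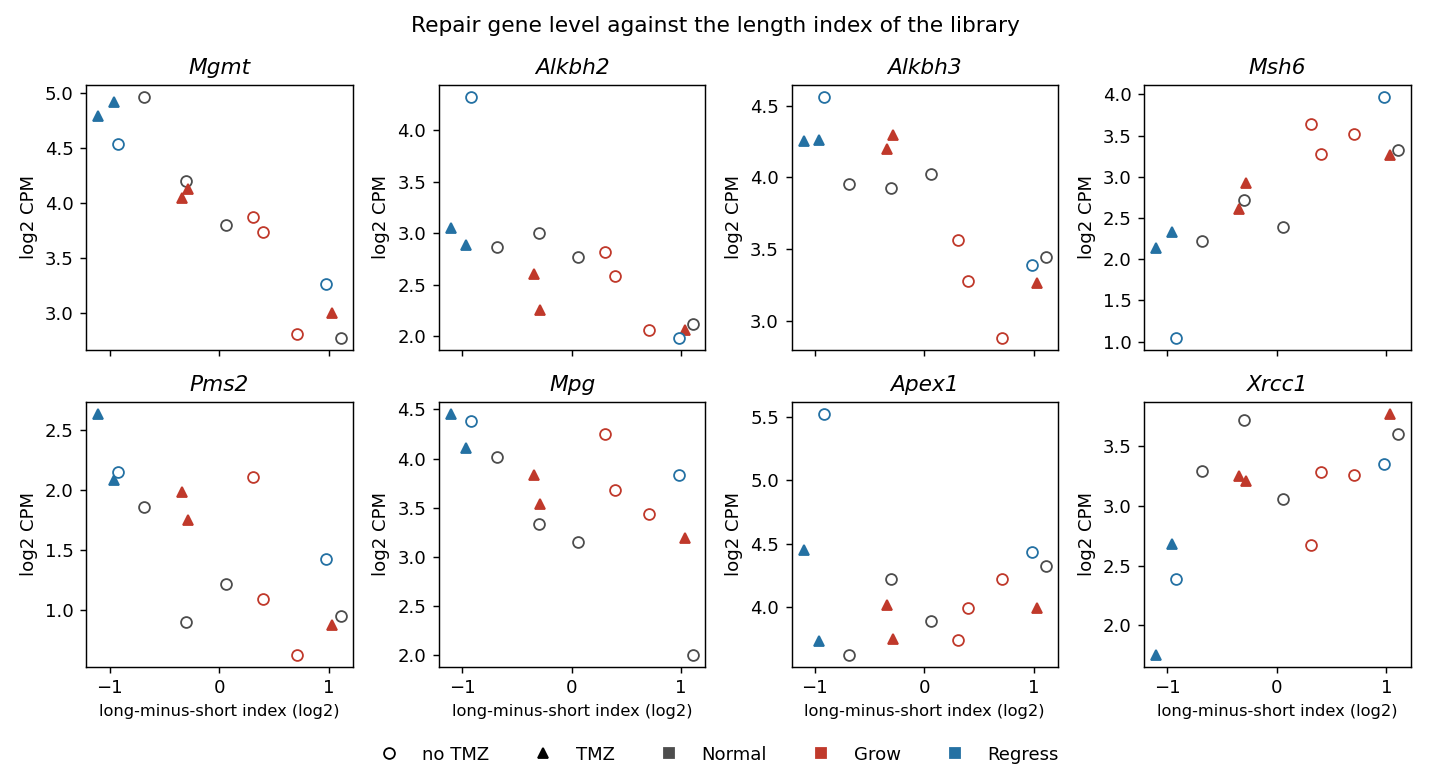
Log2 CPM of each repair gene (vertical axis) against the long-minus-short index of the library (horizontal axis, log2); colours mark Normal, Grow and Regress and triangles mark TMZ tumours. Mgmt falls from left to right and Msh6 rises, with Normal and tumour libraries along the same course. Apex1 had a slope of 0.06 ± 0.18 (SE) over all libraries, among them the high value of Regress 2 at an index of -0.92. Its slope without Regress 2 was not fitted.

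The genes with patterns most like each member, by the root mean square difference of centred log2 CPM over the 14 samples, were named for each. For Mgmt they were Naa38, Rps28 and Lsm1, at 0.162, 0.171 and 0.179, against 0.887 for the median gene of 7634 and an SD of Mgmt itself of 0.719. Rps28 encodes a ribosomal protein and Lsm1 an mRNA decay factor. For Msh6 they included Gon4l and Man1a2, at 0.276 and 0.291, with gene models of 7537 and 7969 bases. Apex1 was nearest to Tpi1, a glycolytic enzyme, and to Sh3glb2 and Hspbp1, at 0.200, 0.207 and 0.221.
For Alkbh2 the nearest genes were Ptp4a1, Czib and Ric8a (0.239 to 0.242), and for Alkbh3 they were Eif1, Rheb and Cdk5 (0.178 to 0.187). Pms2 was nearest to Nufip1, Mrps26 and Tiparp (0.260 to 0.295), Mpg to Npc2, Nol12 and Atf4 (0.242 to 0.250) and Xrcc1 to Elac2, Tbc1d9b and Maz (0.244 to 0.252).

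Another 39 repair genes, 11 of mismatch repair and its resynthesis step, 21 of base excision and single-strand break repair and 7 AlkB homologues, were followed in the same fits. Between tumour and Normal 34 passed the filter, 0 were called (2.32% of all features) and 5 had an unadjusted p under 0.05 (18% of all), a count no higher than the background. The median was -0.05. The nearest to a call was Lig1, the ligase of replication and long-patch repair. It measured 2.63, 2.45, 1.64 and 2.18 CPM in Normal 1 to 4, 4.24 to 7.20 in Grow, and 1.77, 8.30, 6.18 and 11 in Regress 1 to 4. Every tumour except Regress 1 was above every Normal liver, and the difference was 1.47 ± 0.38 (interval 0.65 to 2.28; unadjusted p = 0.00176, edgeR adjusted p = 0.0587). Without Regress 1, the library at the Normal level of tumour markers, Lig1 was called higher in tumours, by 1.62 ± 0.26 (adjusted p = 0.00460), and was the only 1 of 35 called, in a fit that called 7.84% of all features. In the summed proliferation genes Regress 1 was likewise the lowest tumour, there above the 4 Normal livers, and their part in the Lig1 difference was not tested.

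Rpa2, a subunit of the single-strand binding complex, averaged 4.45 ± 0.956 CPM in Normal (SD, n = 4) and 7.03 ± 1.94 in tumours (n = 10), a difference of 0.67 ± 0.27 (edgeR adjusted p = 0.200; without Regress 1, 0.72 and adjusted p = 0.133). Msh3, a mismatch recognition protein for small insertions and deletions, was 7.59 ± 1.34 CPM in Normal and 5.04 ± 2.25 in tumours, a difference of -0.71 ± 0.30 (adjusted p = 0.219; without Regress 1, -0.71 and adjusted p = 0.207). Exo1, Mbd4, Neil3 and Mutyh had too few counts to be tested in any comparison with all libraries, and Neil2 was tested only in those with TMZ as a term.

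Regress against Grow, 0 of 34 were called (0% of all features), 3 had an unadjusted p under 0.05 (10% of all) and the median was -0.06. Smallest by p was Alkbh7, a mitochondrial AlkB homologue, at 1.28 ± 0.51 (edgeR adjusted p = 0.474), and it was 0.81 ± 0.52 without Regress 1 (adjusted p = 0.619). Without Regress 4, 3 of 35 were called, a share near the 9.98% of all features in that fit, among them Alkbh7 at 1.62 ± 0.44 (adjusted p = 0.0407) and Msh3 at -1.25 ± 0.32 (adjusted p = 0.0388). Alkbh7 fell by 1.18 ± 0.15 per unit of the long-minus-short index (adjusted p = 5.25e-05). For TMZ, 0 of 35 were called (0% of all features), 5 had an unadjusted p under 0.05 (14.2% of all) and the median was 0.02. Fto, an RNA demethylase of the AlkB family, had -0.93 ± 0.32 (adjusted p = 0.229) and Pold1, the catalytic subunit of a replicative polymerase, -1.23 ± 0.45 (adjusted p = 0.241). Without Regress 1 they were at -0.81 (adjusted p = 0.447) and -0.94 (adjusted p = 0.490). Fto averaged 21.8 ± 10.7 CPM in TMZ tumours and 40.0 ± 11.2 in the others, and rose by 0.80 ± 0.11 per unit of index (adjusted p = 9.63e-05). In the interaction 0 of 35 were called, and the 2 with the smallest p were Alkbh8, a tRNA modifying enzyme, at -1.83 ± 0.64 (adjusted p = 0.630), and Rpa1 at 1.24 ± 0.52 (adjusted p = 0.691).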

How the data were processed

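Per the labels' protocols, 14 RNA samples (Qiagen RNeasy) were sequenced as TruSeq RNA v2 libraries, which carry no strand. The deposited values are estimated counts per RefSeq transcript row (35230 rows). Salmon 0.3.1, edgeR 3.14.0 and the build mm9 are listed in the submitters' processing notes, with no role given. The annotation is not given in the sources used here. Rows were matched to symbols with a RefSeq table of GRCm38.p6 (26077 rows) or GENCODE M21 (148 more), summed per gene and rounded; 9005 unmatched rows stayed as features of their own and hold 3.52% to 12.05% of a library. Each of the 8 genes rests on 1 row. 1 column without values was not used. Lengths are of the paired GENCODE model.

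edgeR 4.0.16 (R 4.3.3, limma 3.58.1) was run on all features with TMM, filterByExpr and the robust quasi-likelihood test, with Benjamini-Hochberg adjustment and a call at 0.05. Tumour against Normal was the mean of the Grow and Regress terms, weighted equally, minus Normal, so a Regress library weighed more than a Grow library. SE is the absolute log2 fold change over the square root of F, and log2 CPM used a prior count of 2. DESeq2 1.42.0 and limma-voom were alternatives. The code was tested on simulated data. Named were the 8 genes, of the other repair genes the 2 with the smallest p in each comparison, and the 3 genes most alike; Msh3 and the untested genes were added after their values were seen, and some genes that the rule names are not reported here. Members and lists were chosen with earlier results of these data known. Of 12 pairs with the same replicate number, 2 had a correlation above 0.1. Such correlations cannot exclude a pairing, and the numbers were not used as pairs in the main fits.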

Additional observations from a re-analysis of the deposited data

Results flagged for a closer look

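Of all group values checked, 3 stood far from the rest of their group by Dixon's test at the 95% level. The check covered 40 groups of 4 to 6 samples, and chance marks about 1 in 20 groups. Alkbh3 had a log2 CPM of 3.45 in Normal 3, where the nearest other Normal liver had 3.93. Alkbh3 had a log2 CPM of 3.26 in Grow 2 among the TMZ tumours, where the nearest had 4.2. Msh6 had a log2 CPM of 1.05 in Regress 2 among the tumours without TMZ, where the nearest had 3.28, and that value rests on 9 counts. Normal 3 and Grow 2 are the 2 libraries with the highest long-minus-short index.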

How the results depend on the processing

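The 0 of 8 genes called held in every comparison under all alternatives run except without Regress 4. There Regress against Grow called 2 of 8, Alkbh2 and Msh6, where 9.98% of all features were called. Over the left-out libraries the range was 0 to 2 of 8. Of the members' values under other settings, 66 of 72 (tumour against Normal), 72 of 72 (Regress against Grow) and 78 of 88 (TMZ) kept their direction. Counts over all features moved more. Tumour against Normal, 285 features became 1055 with DESeq2, 127 with limma-voom, 0 without Normal 4 and Regress 2, 662 with the length trend removed and 1064 with the long-minus-short index as a covariate, and 0 (without Normal 3) to 991 (without Regress 1) over left-out libraries, with 8, 58 and 14 without Normal 1, 2 and 4, 161, 119 and 98 without Grow 1, 5 and 6, and 118 without Regress 3. Regress against Grow, 0 became 31 with DESeq2, 2 with the index and 0 to 1249 (without Regress 4). For TMZ, 0 became 1 with no filter, 484 with DESeq2, 2 with limma-voom, 73 with the length trend removed, 38 with 3 groups by TMZ and 0 to 768 (without Grow 2; 110 without Regress 3, 4 without Regress 1). The interaction gave 70 with DESeq2 and 0 to 64 (without Grow 2; 1 without Regress 1). The causes were not tested.

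Some signs turned. Tumour against Normal, Mgmt was 0.06 with limma-voom, Alkbh2 was -0.15 without Normal 4 and Regress 2, and Alkbh3 was -0.003 with Grow 3 and Grow 4 summed, -0.0556 with the length trend removed and -0.0669 with the index. For TMZ, Xrcc1 was 0.0026 with DESeq2, 0.0561 with limma-voom, 0.0526 with 3 groups by TMZ and 0.24 with the index; Alkbh2 was 0.14 without Normal 4 and Regress 2, Mpg 0.0305 with SAHA in the fit, and with the index Mgmt was -0.0754 and Pms2 -0.035. Over left-out libraries, tumour against Normal ran from -0.32 to 0.39 for Mgmt, -0.17 to 0.28 for Alkbh2, -0.0512 to 0.17 for Alkbh3 and -0.15 to 0.57 for Msh6, and TMZ from -0.60 to 0.14 for Alkbh2, -0.24 to 0.088 for Mpg and -0.21 to 0.22 for Xrcc1.

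With the replicate number as a block, 0 features were called between tumour and Normal and 0 of the 8 genes in any comparison. The numbers were not shown to pair samples. With this block Mgmt was 0.0902 for tumour against Normal, and for TMZ Pms2 was -0.0286 and Xrcc1 0.0486. Same-number samples correlated at -0.56 to 0.20 over 12 pairs.

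Depth limits Pms2 and Msh6 most, with 9 counts in their lowest libraries. The 95% intervals of the 8 genes in the 3 comparisons extend as far as -1.62 and 1.73, so log2 differences of that size remain possible.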
